A study of Mus musculus with 2 samples.

Results

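Oligodendrocytes with Il33 are mature, myelinating glial cells of the hippocampus in which transcripts of the cytokine IL-33 were captured. They were chosen cell by cell in 2 droplet libraries of 5' single-cell RNA counts, in which every captured molecule carries a unique molecular identifier (UMI). A barcode was kept if 300 or more genes were seen in it and if UMIs of the mitochondrial genome made up no more than 10% of its total. A kept cell was an oligodendrocyte with UMIs of at least 5 of 8 oligodendrocyte genes (Mog, Mag, Mobp, Cldn11, Ermn, Opalin, Mal and Aspa) and of at most 2 of 6 genes of other cell types (Cldn5, Flt1, Vtn, Aqp4, Gja1 and C1qa). It also had no UMI of Klk6 and at least 1 UMI of Il33. The rule took 2270 of 11605 kept cells, of 11757 barcodes in all. Of these, 913 of 5278 came from the Mr1-/- library and 1357 of 6327 from the Mr1+/+ library.

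The study compared hippocampi of untreated mice of both genotypes, Mr1-/- and Mr1+/+, at 7 months of age. Cells were freed with a neuron isolation kit and sorted as live (DAPI-negative) and nucleated (Draq5-positive). There was 1 library for each genotype. The sources used here do not give the number of mice in each, their sex or the Mr1 allele. A difference between the genotypes has therefore no replicate check and no test, and an interval below covers counting error only. Genotype and library cannot be told apart in any of these comparisons. Mr1-/- members gave 3994777 UMIs, with a median of 4172 per cell and a median mitochondrial share of 3.69%. Mr1+/+ members gave 6129510 UMIs, with medians of 4385 and 3.43%. The members were 17.3% of kept Mr1-/- cells and 21.4% of kept Mr1+/+ cells, shares that dissociation and sorting can set. The libraries shared 44 barcodes, and none of them belonged to a member in both. Mr1 had 2 UMIs in all kept Mr1-/- cells, against 138 in all kept Mr1+/+ cells, and within the members 0 against 12 (upper limit of the ratio 0.552). The deleted part of the gene is not named in the labels.

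Oligodendrocytes wrap axons in myelin, a stack of membrane held together by proteins such as those of Mbp, Mog and Cldn11. IL-33 belongs to the interleukin-1 family, is kept in the nucleus and acts as an alarm signal when cells are damaged. It binds the receptor chain encoded by Il1rl1 (ST2) with the accessory chain encoded by Il1rap. Mr1 encodes an MHC class I-like protein that presents small metabolites of microbes to MAIT cells, an innate-like kind of T cell.

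Il33 marked nearly every oligodendrocyte without Klk6. Of the oligodendrocytes without a Klk6 UMI, 913 of 935 carried Il33 in the Mr1-/- library (97.6%, exact 95% interval 96.5 to 98.5%) and 1357 of 1424 in Mr1+/+ (95.3%, 94.1 to 96.3%). The difference was 2.35 percentage points (Newcombe interval 0.813 to 3.81). When every cell was thinned to 1500 UMIs, the shares were 86.1% in Mr1-/- cells and 84.2% in Mr1+/+ cells, and the interval of the difference, -1.06 to 4.92 points, included 0. Requiring 7 of the 8 oligodendrocyte genes brought the unthinned difference to 0.649 points (-0.708 to 1.91). Thinning left out 12 Mr1-/- and 130 Mr1+/+ cells with fewer UMIs. Among those shallow cells Il33 was seen in 12 of 12 from Mr1-/- and in 98 of 130 from Mr1+/+. The members held a median of 6 Il33 UMIs each in either library, with highest values of 26 in Mr1-/- and 27 in Mr1+/+.

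Il33 UMIs were rare in microglia and endothelial cells, and their source there was not tested. Microglia had an Il33 UMI in 0.634% of Mr1-/- cells and 0.538% of Mr1+/+ cells, at median depths of 3638 and 3809 UMIs. Endothelial cells had one in 0.522% of Mr1-/- cells and 1.22% of Mr1+/+ cells, at median depths of 2311 and 2476 UMIs. Astrocytes stood between, with a UMI in 37.3% of Mr1-/- and 37.1% of Mr1+/+ cells. Their level was 173 CPM (UMIs of a gene scaled to a common library total) in Mr1-/- and 171 CPM in Mr1+/+, while the members, chosen for an Il33 UMI, held 1526 CPM in Mr1-/- and 1550 CPM in Mr1+/+. The plot of Il33 shares by cell type gives these groups at equal depth.

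**Figure D1:**
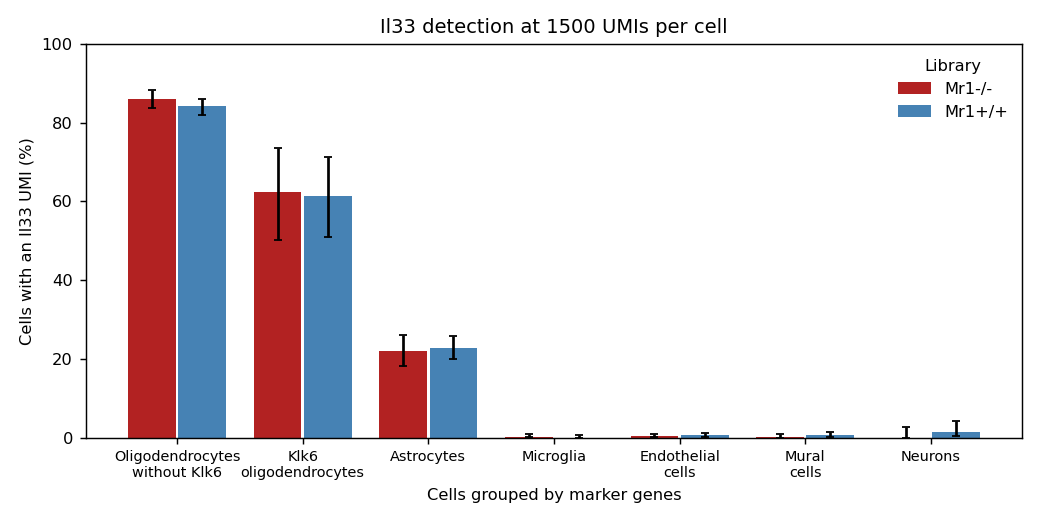
Share of cells with an Il33 UMI after thinning every cell to 1500 UMIs, by cell group, in the Mr1-/- (red) and Mr1+/+ (blue) libraries; bars are shares and whiskers exact 95% intervals for counting error. Oligodendrocytes without Klk6 stood at 86.1% in Mr1-/- and 84.2% in Mr1+/+, above Klk6 oligodendrocytes and astrocytes, and microglia were near 0.

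Of the edges of the rule given here, that of the Il33 criterion held the most cells. All 8 oligodendrocyte genes were detected in 695 Mr1-/- and 957 Mr1+/+ members, and just 5 in 7 Mr1-/- and 29 Mr1+/+ members. A further 2 Mr1-/- and 22 Mr1+/+ cells met every other criterion with 4 of the 8 genes. None of the 6 other-type genes was present in 819 Mr1-/- and 1176 Mr1+/+ members, 2 of them were present in 28 and 49, and 2 Mr1-/- and 8 Mr1+/+ cells were outside with 3. A single Il33 UMI brought in 54 Mr1-/- and 95 Mr1+/+ members, and 22 Mr1-/- and 67 Mr1+/+ cells had none. A single Klk6 UMI kept out 31 Mr1-/- and 42 Mr1+/+ cells that met all the other criteria, out of 72 Mr1-/- and 96 Mr1+/+ oligodendrocytes with Klk6.

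The label held against markers that the rule did not use. Ptgds, which encodes lipocalin-type prostaglandin D synthase, was seen in 99.1% of Mr1-/- and 98.1% of Mr1+/+ members. It stood at 23099 CPM in Mr1-/- and 19241 CPM in Mr1+/+, against 979 and 929 CPM in all other kept cells of the same libraries. The few fibroblasts, 18 Mr1-/- and 16 Mr1+/+ cells, held more of it, with 114662 CPM in Mr1-/- and 82540 CPM in Mr1+/+. Mbp, encoding myelin basic protein, stood at 6297 CPM in Mr1-/- and 6574 CPM in Mr1+/+ members. Of 6 markers of oligodendrocyte precursors 5 had UMIs in the members, 25 UMIs (6.26 CPM) in Mr1-/- and 49 (7.99 CPM) in Mr1+/+. The marker at 0 in both libraries was Pdgfra, the receptor that defines these precursors. Members with 3 or more of the 6 numbered 0 in both libraries. Scrublet, which scores likeness to simulated doublets, called 46 Mr1-/- members (5.04%) and 94 Mr1+/+ members (6.93%).

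Transcripts of other cell types were present at low levels, and their sums by list were lower in the Mr1-/- members. Each list had 8 markers. Microglial markers summed to 751 CPM in Mr1-/- and 927 CPM in Mr1+/+, endothelial markers to 264 and 330 CPM, mural markers to 295 and 479 CPM, and astrocyte markers to 220 and 316 CPM. All 8 markers of each of these 4 lists had UMIs in both libraries. At least 3 astrocyte markers together were found in 11 Mr1-/- (1.20%) and 37 Mr1+/+ members (2.73%). For microglial markers the numbers were 14 (1.53%) and 29 (2.14%), and for mural markers 12 (1.31%) and 28 (2.06%). The share for endothelial markers went the other way, with 23 Mr1-/- (2.52%) and 32 Mr1+/+ members (2.36%). Of the 8 neuronal markers 7 had UMIs, for 30.0 CPM in Mr1-/- and 61.8 CPM in Mr1+/+, with Rbfox3 at 0 in Mr1-/- and Gad1 at 0 in Mr1+/+.

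Oligodendrocytes with Klk6, a kallikrein-like protease, were the nearest cells for comparison, with 72 cells from Mr1-/- and 96 from Mr1+/+. They met the same filters, and their median depths were 6248 UMIs in Mr1-/- and 6446 in Mr1+/+. Il33 was found in 60 of the 72 Mr1-/- and 83 of the 96 Mr1+/+ Klk6 cells, so the groups differ in the amount of Il33 and not in its presence alone. Without selecting on Il33, oligodendrocytes lacking Klk6 held 1492 CPM of Il33, against 636 CPM in Klk6 cells, in the Mr1-/- library (ratio 2.35, 95% interval 2.09 to 2.64). The values in the Mr1+/+ library were 1498 CPM and 680 CPM (ratio 2.20, 2.0 to 2.43). These ratios were not matched for depth. The oligodendrocytes lacking Klk6 with 6000 or more UMIs held less Il33, 1079 CPM in Mr1-/- and 1085 CPM in Mr1+/+.

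Below, a gene counted as past 1.5-fold where the ratio of its CPM values, after adding 10 CPM to both, was at least 1.5 or at most its inverse. Genes needed a mean of 50 CPM and 50 UMIs to be measured, unless a lower number of UMIs is given. Of 2967 genes, 34 (1.15%) were higher and 66 (2.22%) lower in Il33 than in Klk6 oligodendrocytes past 1.5-fold in both libraries. The members were not chosen on any of the genes named in the next 2 paragraphs except Opalin. Since the cells compared come from the same libraries, and the rule split them by genes of their own, these are descriptions.

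Genes were ranked by the smaller of their differences in the 2 libraries. Ptgds came first on the high side, at 23099 CPM in Il33 against 5382 CPM in Klk6 oligodendrocytes of the Mr1-/- library, and 19241 against 3272 CPM in the Mr1+/+ library. Opalin, a membrane protein of the mature cell, followed with 959 against 206 CPM in Mr1-/- and 868 against 300.3 CPM in Mr1+/+. Cd9, a tetraspanin, held 1013 against 305 CPM in Mr1-/- and 966 against 365 CPM in Mr1+/+. The others of the 12 highest were Bfsp2 (an intermediate filament protein known from the lens), Gm42756, Phactr3 (a regulator of protein phosphatase 1), C030029H02Rik, Prickle1 (planar cell polarity), Ick (a ciliary kinase), Plekha1 (a phosphoinositide-binding protein), Hebp1 (heme binding) and Sema6d (a semaphorin). Their log2 ratios lay between 0.92 and 1.77 in Mr1-/- and between 0.96 and 1.54 in Mr1+/+. Sgk1, a kinase described further below, was also higher, at 942 against 416 CPM in Mr1-/- and 2190 against 1236 CPM in Mr1+/+.

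S100b, a calcium-binding protein, came first on the low side. It was at 125 CPM in Il33 against 1111 CPM in Klk6 oligodendrocytes in the Mr1-/- library and 140 against 1010 CPM in the Mr1+/+ library. Hopx, a homeodomain-only protein, held 46.6 against 297 CPM in Mr1-/- and 52.5 against 248 CPM in Mr1+/+. Enpp6, a choline phosphodiesterase used as a marker of newly forming oligodendrocytes, held 55.1 against 250.2 CPM in Mr1-/- and 48.3 against 225 CPM in Mr1+/+. The rest of the 12 lowest were Slc25a27 (a mitochondrial carrier), Anxa5 (an annexin), Selenop (a selenium carrier), Mgst3 (a glutathione transferase), Padi2 (which citrullinates myelin basic protein), Plin3 (a lipid droplet protein), Fam131b, Slco3a1 (an organic anion transporter) and Anln (a septin scaffold of myelin). Apod, encoding the lipid carrier apolipoprotein D, was at 1739 against 3752 CPM in Mr1-/- and 1718 against 3124 CPM in Mr1+/+.

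**Figure D2:**
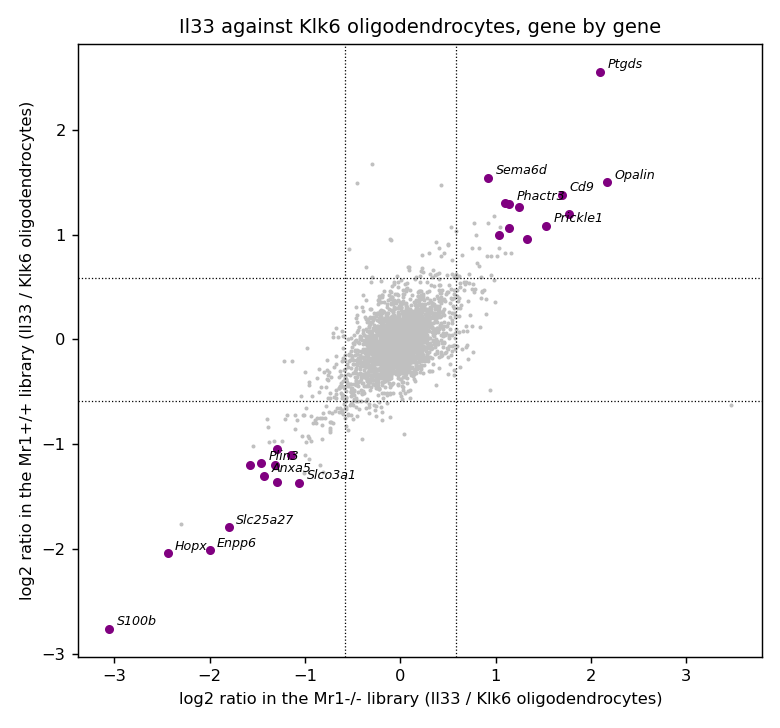
Log2 ratio of Il33 over Klk6 oligodendrocytes in the Mr1-/- library (x axis) and the Mr1+/+ library (y axis), with 10 CPM added; each point is 1 of 2967 genes, purple points are the 24 named ones, and dotted lines mark 1.5-fold. Ptgds, Opalin and Cd9 stood at the upper right and S100b, Hopx and Enpp6 at the lower left in both libraries.

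Myelin genes differed little between the groups. Mbp held 6297 CPM in Il33 and 6076 CPM in Klk6 oligodendrocytes of the Mr1-/- library, and 6574 and 6645 CPM in the Mr1+/+ library. Of 25 measured myelin genes that the rule did not use, 0 were higher and 3 lower past 1.5-fold in both libraries, beside 1.15% and 2.22% of all genes. Those 3 were Gjb1 (a gap junction connexin), Hapln2 (which links matrix at nodes of Ranvier) and Anln. None of 15 measured oligodendrocyte transcription factors passed in either direction, with Sox10 log2 ratios of 0.11 in Mr1-/- and 0.15 in Mr1+/+ and Myrf ratios of -0.07 and -0.02.

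The list of grey matter type genes of mature oligodendrocytes, drawn from textbook and atlas knowledge, did not move one way. Of its 12 measured genes, 1 was higher (Ptgds) and 4 lower (S100b, Apod, Anln and Serpinb1a) past 1.5-fold in both libraries, beside 1.15% higher and 2.22% lower of all genes. The white matter and cord type list had 2 of 7 higher (Cd9 and Sgk1) and 4 lower (Hopx, Anxa5, Mgst3 and Hapln2). In the list of disease-associated oligodendrocyte genes 3 of 7 were higher, namely Cd9, Cd63 (a tetraspanin of endosomes) and Gstp1 (a glutathione transferase).

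Promoter windows are shown with 2 short motifs for Il33 and Klk6, which the rule split the cells by, and for Ptgds and Opalin, the first 2 of the genes higher in Il33 than in Klk6 oligodendrocytes. Each window is the 250 bases before a RefSeq start on GRCm38.p6, read on the gene's strand. Capitals mark ACAAAG, a core that SOX proteins such as SOX10 bind, or CTGGNAC, on either strand. The latter is a loose form of the MYRF motif that takes any base at N.

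Il33, start 1: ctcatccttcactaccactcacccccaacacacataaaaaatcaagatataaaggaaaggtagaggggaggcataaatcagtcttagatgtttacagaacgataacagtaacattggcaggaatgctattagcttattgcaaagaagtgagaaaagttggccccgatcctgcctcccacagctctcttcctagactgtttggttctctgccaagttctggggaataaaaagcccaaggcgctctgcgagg
Il33, start 2: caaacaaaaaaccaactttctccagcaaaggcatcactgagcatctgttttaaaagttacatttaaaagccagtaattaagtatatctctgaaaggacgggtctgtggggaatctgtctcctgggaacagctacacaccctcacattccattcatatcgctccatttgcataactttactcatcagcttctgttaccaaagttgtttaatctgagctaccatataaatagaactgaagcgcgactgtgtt
Ptgds: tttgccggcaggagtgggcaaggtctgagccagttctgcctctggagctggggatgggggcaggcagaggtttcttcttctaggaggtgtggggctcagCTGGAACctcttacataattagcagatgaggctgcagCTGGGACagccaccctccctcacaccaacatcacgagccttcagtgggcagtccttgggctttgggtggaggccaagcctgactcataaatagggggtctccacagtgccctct
Opalin: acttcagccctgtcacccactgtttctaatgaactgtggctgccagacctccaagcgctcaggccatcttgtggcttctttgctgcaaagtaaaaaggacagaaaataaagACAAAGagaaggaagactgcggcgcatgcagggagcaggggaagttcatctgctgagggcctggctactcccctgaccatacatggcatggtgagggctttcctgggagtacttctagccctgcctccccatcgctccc
Klk6, start 1: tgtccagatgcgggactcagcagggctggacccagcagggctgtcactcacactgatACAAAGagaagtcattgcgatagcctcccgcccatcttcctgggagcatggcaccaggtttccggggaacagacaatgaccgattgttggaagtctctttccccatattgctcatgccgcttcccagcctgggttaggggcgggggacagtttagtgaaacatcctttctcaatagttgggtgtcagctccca
Klk6, start 2: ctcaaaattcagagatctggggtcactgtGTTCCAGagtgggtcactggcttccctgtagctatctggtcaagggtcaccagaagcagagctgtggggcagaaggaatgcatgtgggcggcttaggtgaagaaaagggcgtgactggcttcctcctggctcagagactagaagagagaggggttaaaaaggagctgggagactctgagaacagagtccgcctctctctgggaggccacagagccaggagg

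The Il33 windows lie at chr19:29924863-29925112 and chr19:29945540-29945789 on the plus strand, and neither held either motif. The Ptgds window, chr2:25469750-25469999 on the minus strand, held the MYRF form 2 times, starting 151 and 114 bases before the start. The Opalin window, chr19:41077114-41077363 on the minus strand, held the SOX core 1 time. The Klk6 windows, chr7:43824294-43824543 and chr7:43825200-43825449 on the plus strand, held 1 SOX core and 1 MYRF form. Of 32851 RefSeq windows of the same length, 16.5% held the SOX core and 16.1% the MYRF form. At N the marked MYRF forms held A or G, and no stricter form of that motif was counted. A match is a run of letters and not a bound site.

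Ptgds was uneven within the members. At 1500 UMIs per cell its variance was 21.4 times its mean in Mr1-/- and 19.6 times in Mr1+/+, against a median of 1.0 over 3915 genes in both. Mr1-/- members held a median of 30 Ptgds UMIs, with 5 at the 10th and 71 at the 90th percentile, and Mr1+/+ members a median of 24, with 4 and 60. Klk6 oligodendrocytes held a median of 1 in both libraries. The high ranks for variance also held genes of other cell types, such as Cst3, Acta2 and the C1q genes.

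Members with little Ptgds carried more S100b, Hopx, Enpp6, Anln and Selenop, genes chosen after their values were seen and all lower in Il33 than in Klk6 oligodendrocytes. The members were ordered by Ptgds at 1500 UMIs and cut into 4 equal groups. S100b was at 254, 65.2, 35.6 and 14.8 CPM going up these groups in Mr1-/- and at 341, 76.2, 25.4 and 25.5 CPM in Mr1+/+. Hopx was at 142, 20.7, 5.93 and 14.8 CPM in Mr1-/- and at 121, 31.7, 10.6 and 8.49 CPM in Mr1+/+. Enpp6 was at 133, 41.5, 17.8 and 17.8 CPM in Mr1-/- and at 129, 33.9, 14.8 and 4.25 CPM in Mr1+/+. In each case the lowest group stood apart from the other 3. Anln and Selenop followed the same order of lowest and highest groups, with Anln at 484 and 136 CPM in Mr1-/- and 487 and 157 CPM in Mr1+/+.

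The high end of Ptgds carried more of a few other genes. Fam13c was at 67.8, 113, 145 and 169 CPM in Mr1-/- and at 42.3, 74.1, 104 and 234 CPM in Mr1+/+. Kirrel3, a cell adhesion molecule, was at 38.3 CPM in the lowest and 127 CPM in the highest group of Mr1-/-, and at 25.4 and 130 CPM in Mr1+/+. Cd63 was at 472 and 865 CPM in Mr1-/- and at 394 and 817 CPM in Mr1+/+. Il33 itself varied less along this order, at 1351 and 1600 CPM in Mr1-/- and 1297 and 1682 CPM in Mr1+/+. Mog, at 2268 and 1991 CPM in Mr1-/- and 2256 and 2098 CPM in Mr1+/+, and Car2 (carbonic anhydrase 2), at 3664 and 3736 CPM in Mr1-/- and 3443 and 3641 CPM in Mr1+/+, were nearly level.

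**Figure D3:**
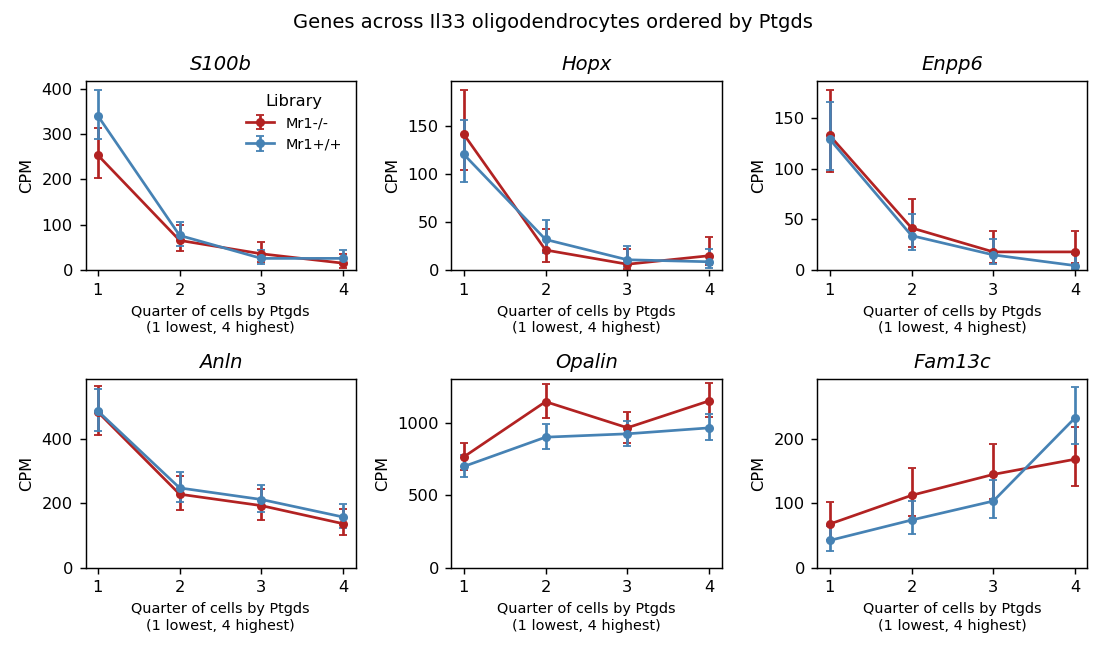
Levels of 6 genes (CPM, y axes) in Il33 oligodendrocytes cut into 4 equal groups by their Ptgds UMIs at 1500 UMIs per cell (x axes), in the Mr1-/- (red) and Mr1+/+ (blue) libraries; whiskers are exact 95% Poisson intervals for counting error. S100b, Hopx, Enpp6 and Anln were highest in the lowest Ptgds group, while Opalin and Fam13c were higher toward the other end.

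Of 2836 genes with enough UMIs, 20 (0.705%) were higher and 53 (1.87%) lower past 1.5-fold in the highest against the lowest Ptgds group of both libraries. Markers of other cells also moved with Ptgds, with C1qa at 80.0 CPM in the highest and 97.8 CPM in the lowest group of Mr1-/- and at 0 and 197 CPM in Mr1+/+. Among members with none of the 6 other-type genes the counts were 16 higher (0.566%) and 47 lower (1.66%) of 2825. S100b stayed apart there, with 16.5 CPM in the highest and 267 CPM in the lowest group of Mr1-/- and 24.6 and 364 CPM in Mr1+/+. A Klk6 cell in which no Klk6 UMI was captured counts as a member, and its part in the lowest group was not tested.

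The same cells were also ordered by Il33, a gene the rule used and with few UMIs per cell (at least 3 at 1500 UMIs in the highest and at most 1 in the lowest group), so the counts cannot be set against those of the Ptgds order. Of 2870 genes 2 (0.0697%) were higher and 20 (0.697%) lower past 1.5-fold in the highest against the lowest group. The 2 higher were Bfsp2 and 7630403G23Rik, chosen after their values were seen. S100b was again lower, at 41.5 CPM in the highest and 175 CPM in the lowest Il33 group of Mr1-/- and at 44.6 and 234 CPM in Mr1+/+. Cst3 and Acta2, genes of microglia and mural cells, were lower too, and among members with no other-type gene 2 genes (0.0708%) were higher and 9 (0.319%) lower of 2824.

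Oligodendrocytes with a UMI of neither Il33 nor Klk6 were few and shallow, with 22 Mr1-/- cells at a median of 3671 UMIs and 67 Mr1+/+ cells at a median of 1656 UMIs. Of 2854 genes, 20 (0.701%) were higher and 32 (1.12%) lower in the Il33 cells past 1.5-fold in both libraries. After thinning to equal depth these counts were 72 and 90. Bfsp2 led the higher genes, at 114 CPM in Il33 cells against 44.0 CPM in cells with neither in Mr1-/- (from 4 UMIs in the cells with neither, ratio 2.60, 1.01 to 9.57) and 122 against 37.6 CPM in Mr1+/+ (8 UMIs, 3.25, 1.64 to 7.56). Ptgds was at 23099 against 13594 CPM in Mr1-/- and 19241 against 11397 CPM in Mr1+/+. The others rested on 3 to 10 UMIs in the Mr1-/- cells with neither, and were Hsd17b12, Fbxo7, Anp32a, Atp6ap1, Dock1 and Spock1. The Mr1-/- intervals of Hsd17b12, Anp32a, Atp6ap1 and Spock1 include 1. On the low side Trip12, Rnd2, Marcksl1, Hist1h4h, Ccny, Ctnna2, 2610035D17Rik and Atp6v0e were the 8 lowest by the naming rule, and the Mr1-/- intervals of Trip12, Ccny and Ctnna2 include 1. S100b was lower as well, at 125 against 615 CPM in Mr1-/- and 140 against 507 CPM in Mr1+/+.

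Between the genotypes the members were alike in most genes. Of 3091 measured genes, 3 (0.0971%) were higher and 22 (0.712%) lower past 1.5-fold in Mr1-/- than in Mr1+/+ members, with a median log2 ratio of -0.01. Il33 is a gene the rule used. In oligodendrocytes without Klk6, taken with or without an Il33 UMI, it was at 1492 CPM in Mr1-/- and 1498 CPM in Mr1+/+. The 8 genes the rule used to find oligodendrocytes had ratios of 0.944 (Mobp) to 1.11 (Opalin). Ptgds was at 23099 CPM in Mr1-/- and 19241 CPM in Mr1+/+, a ratio of 1.20 (1.19 to 1.21) that stayed short of 1.5-fold. Its ratio was 1.65 (1.55 to 1.74) in Klk6 oligodendrocytes and 1.39 (1.34 to 1.44) in the few fibroblasts. Astrocytes and microglia, with far less Ptgds, had ratios of 0.537 and 0.574.

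Sgk1 (chr10:21882184-21999903, plus strand, mm10), the serum and glucocorticoid regulated kinase, fell further than any other measured gene except Sys1. It held 942 CPM from 3765 UMIs in Mr1-/- members, against 2190 CPM from 13423 UMIs in Mr1+/+ members (ratio 0.430, 95% interval 0.415 to 0.446). Of the Mr1-/- members 88.6% held an Sgk1 UMI, against 97.5% of the Mr1+/+ members. At 1500 UMIs per cell the median was 1 UMI in Mr1-/- and 3 in Mr1+/+, and the 90th percentile was 4 and 7, so both were lower in Mr1-/-. The ratio was 0.421 in members with none of the other-type genes, 0.443 with 1 and 0.549 with 2. In Klk6 oligodendrocytes Sgk1 was at 416 CPM in Mr1-/- and 1236 CPM in Mr1+/+ (ratio 0.336). Microglia held 524 CPM in Mr1-/- and 538 CPM in Mr1+/+ (0.973), and endothelial cells 158 and 221 CPM (0.716). Mural cells held 16 Sgk1 UMIs in Mr1-/- and 41 in Mr1+/+ (ratio of CPM 0.440, 0.230 to 0.801).

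Sgk1 was 1 of 24 genes listed as induced by glucocorticoids, the stress steroids that act through the receptor encoded by Nr3c1. Of the 10 measured, 10 were lower in Mr1-/- members and 5 fell past 1.5-fold, with a median log2 ratio of -0.61. Over all genes 1689 of 3091 were lower, 22 (0.712%) of them past 1.5-fold, and the median was -0.01. The 5 were Sgk1, Klf9 (a Krüppel-like factor), Nfkbia (the inhibitor of NF-kappaB), Arrdc2 (an arrestin-domain protein) and Ddit4 (an inhibitor of mTORC1). Klf9 was at 137 CPM in Mr1-/- and 234 CPM in Mr1+/+ (ratio 0.585, 0.529 to 0.646). Ddit4 was at 222 CPM in Mr1-/- and 354 CPM in Mr1+/+ (0.628, 0.581 to 0.680). Nfkbia was at 160 CPM in Mr1-/- and 272 CPM in Mr1+/+ (0.588, 0.536 to 0.644), and is far higher in endothelial cells.

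Just short of the threshold lay Tsc22d3 (the glucocorticoid-induced leucine zipper) with 92.9 CPM in Mr1-/- and 142 CPM in Mr1+/+, and Klf15 with 75.9 and 118 CPM. Tsc22d3 is far higher in endothelial cells (782 CPM in Mr1-/-, 1313.5 CPM in Mr1+/+) and astrocytes (698 and 1180 CPM). Its ratio was 0.712 in members with none of the other-type genes, 0.842 with 1 and 0.489 with 2. The part of transcripts from other cells in its difference was not tested. Errfi1 and Mt1 had log2 ratios of -0.39 and -0.26. Nr3c1 itself was nearly level, at 157 CPM in Mr1-/- and 161 CPM in Mr1+/+. Of the list, 14 genes were too low to be measured by the rule, among them Fkbp5 at 10.5 CPM in Mr1-/- and 18.3 CPM in Mr1+/+ and Cdkn1a at 17.3 and 49.6 CPM. The list was written with earlier results of these data known and is no independent evidence of its direction.

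Of 11 measured heat shock genes 2 fell past 1.5-fold, beside 0.712% of all genes. In all 10 had a ratio under 1 and 1 a ratio above it, with a median log2 ratio of -0.27. The 2 were Hsph1, a large heat shock chaperone, at 40.6 CPM in Mr1-/- and 70.2 CPM in Mr1+/+, and Dnajb1, a J-domain co-chaperone, at 79.1 and 128 CPM. Both were lower in Mr1-/- cells of other types too. Hsph1 had ratios of 0.929 in Klk6 oligodendrocytes (0.538 to 1.58), 0.796 in astrocytes, 0.510 in microglia and 0.480 in endothelial cells. In the same order Dnajb1 had 0.532, 0.515, 0.815 and 0.726. Hspa8, the constitutive Hsp70, was at 1259 CPM in Mr1-/- and 1496 CPM in Mr1+/+. Immediate early genes, which respond fast to stimuli, had 4 of 6 measured higher and 2 lower with a median of 0.13 and none past 1.5-fold. That median was -0.07 without a minimum CPM. Jund was at 940 CPM in Mr1-/- and 729 CPM in Mr1+/+.

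**Figure D4:**
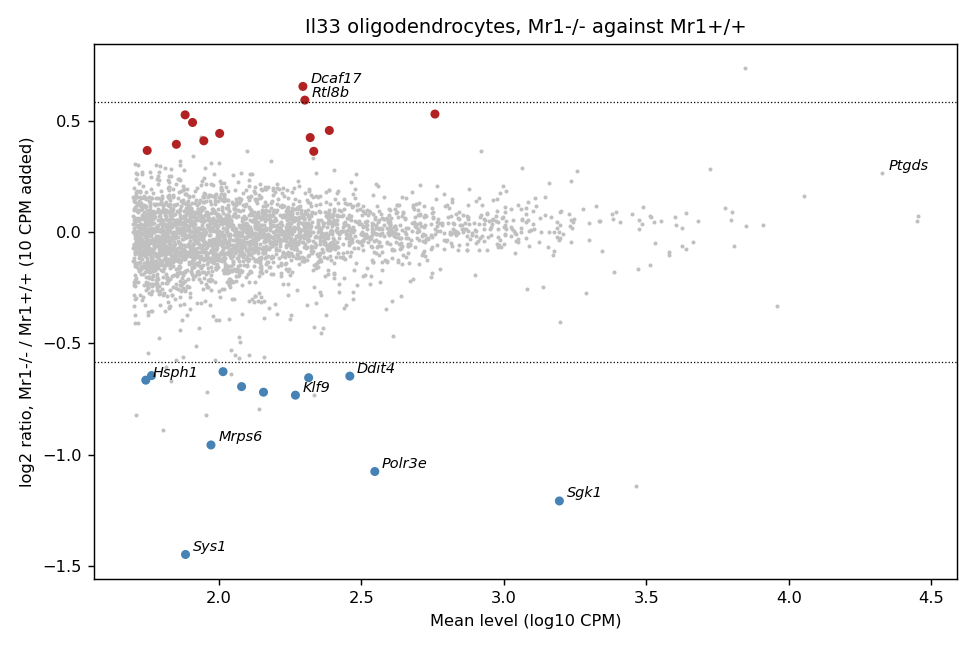
Log2 ratio of Mr1-/- over Mr1+/+ Il33 oligodendrocytes (y axis, 10 CPM added) against mean level (x axis, log10 CPM); each point is 1 of 3091 genes, coloured points are the 12 highest (red) and 12 lowest (blue) by the naming rule, and dotted lines mark 1.5-fold. Sgk1 stands out among abundant genes at -1.21.

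The other lowest genes were Sys1, Polr3e, Mrps6, Arl4d, Arid5b and Emc8. Sys1, a Golgi membrane protein (chr2:164456964-164479638), was at 36.3 CPM in Mr1-/- and 116 CPM in Mr1+/+ (ratio 0.312, 0.259 to 0.373). Polr3e, a subunit of RNA polymerase III (chr7:120917744-120947432), was at 223 CPM in Mr1-/- and 482 CPM in Mr1+/+ (0.464, 0.430 to 0.500). Mrps6, of the mitochondrial ribosome, was at 60.6 CPM in Mr1-/- and 127 CPM in Mr1+/+ (0.477). Arl4d (a small GTPase), Arid5b (a DNA-binding chromatin regulator) and Emc8 (of the ER membrane complex) had ratios of 0.593, 0.621 and 0.590. Sys1, Mrps6 and Emc8 overlap other annotated genes on their own strand or the other one, so their counts are uncertain.

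The ratios of these genes in other cell types differed in size. Sys1 had ratios of 0.371 in Klk6 oligodendrocytes, 0.406 in microglia and 0.324 in endothelial cells. In the same order Mrps6 had 0.717, 0.493 and 0.480, and Emc8 had 0.770, 0.484 and 0.503. Polr3e had a ratio of 0.548 in Klk6 oligodendrocytes, with 1.13 in microglia, 0.882 in endothelial cells and 0.478 in astrocytes (0.240 to 0.885), from at most 80 UMIs in a library for each of these 3 types. Oligodendrocyte precursors held 2 Polr3e UMIs in Mr1-/- and 20 in Mr1+/+ (0.171, 0.0194 to 0.703). Klf9 had ratios of 0.580 in Klk6 oligodendrocytes, 0.832 in astrocytes and 0.834 in endothelial cells. Ddit4 was lower in Mr1-/- cells of several types, with ratios of 0.471 in Klk6 oligodendrocytes, 0.373 in microglia, 0.491 in endothelial cells and 0.906 in astrocytes. Tsc22d3 had ratios of 0.591 in astrocytes, 0.548 in microglia and 0.596 in endothelial cells. With 1 library per genotype, the difference between these ratios was not tested.

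On the high side the 3 genes past 1.5-fold were Dcaf17, Rtl8b and mt-Atp8. Dcaf17, a substrate receptor of a ubiquitin ligase, was at 243 CPM in Mr1-/- and 151 CPM in Mr1+/+ (ratio 1.61, 1.47 to 1.77), and overlaps Mettl8. Rtl8b, a retrotransposon-derived gene with close copies on the X chromosome, was at 243 CPM in Mr1-/- and 158 CPM in Mr1+/+ (1.54, 1.41 to 1.69), with a ratio of 1.57 in endothelial cells too. The mitochondrially encoded mt-Atp8 was at 8802 CPM in Mr1-/- and 5280 CPM in Mr1+/+, while mt-Atp6, which overlaps it, was at 1808 and 3998 CPM. The sources used here do not say how reads in that overlap were divided.

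The remaining 10 of the 12 highest stayed short of the threshold. Among them were Dynlt1b (a dynein light chain with close copies), Scamp4 (a secretory carrier protein), Fam177a, Trp53bp2 (a p53-binding protein), Hs3st1 (a heparan sulfate enzyme), Cxxc5 (a zinc finger protein), Tmem189 (an enzyme of plasmalogen synthesis), Nubp2 (iron-sulfur cluster assembly) and Hist1h2bc (a histone gene of a large family). The log2 ratios of these 9 were 0.36 to 0.53. Scamp4, Tmem189 and Cxxc5 overlap other annotated genes, so their counts are uncertain. Trp53bp2 lies 27.3 Mb from Mr1 on chromosome 1.

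Of the 22 lower genes 8 belong to other cells or to the mitochondrial genome by the naming rule besides Nfkbia, among them Ly6c1, Slc1a2, Vtn, Clu, Gpr37l1, Myl9 and mt-Atp6. Vtn, a mural and pericyte gene, was at 98.1 CPM in Mr1-/- and 177 CPM in Mr1+/+ members. These stand beside the lower sums of mural and astrocyte markers given above, and their part in the results was not tested. A further 1 of the 22 was 9330159F19Rik.

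The myelin genes stayed near level between the genotypes. Of 25 measured myelin genes that the rule did not use, 13 were higher and 12 lower in Mr1-/- members, with a median log2 ratio of 0.01 and none past 1.5-fold. Over all 3091 measured genes 1402 were higher and 1689 lower, and past 1.5-fold were 0.0971% higher and 0.712% lower. Mbp was at 6297 CPM in Mr1-/- and 6574 CPM in Mr1+/+. The widest were Ninj2 (an adhesion protein) at 0.26 and Gjb1 at 0.21. Of 14 measured transcription factors 9 were higher and 5 lower (median 0.04), led by Creb5 at 0.22 and Nkx6-2 at 0.21. Cholesterol synthesis had 8 of 9 higher, in small steps (median 0.06), with Fdps, encoding farnesyl diphosphate synthase, at 112 CPM in Mr1-/- and 88.4 CPM in Mr1+/+.

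Myelin lipid synthesis had 8 of 16 higher and 8 lower, iron handling 5 of 9 higher and 4 lower, and glycolysis and lactate 4 of 13 higher and 9 lower. No member of these lists passed 1.5-fold, beside 0.0971% higher and 0.712% lower of all genes. Trf, encoding transferrin, was at 392 CPM in Mr1-/- and 480.0 CPM in Mr1+/+, and Fth1, the ferritin heavy chain, at 29199 and 27739 CPM. Of 8 measured disease-associated oligodendrocyte genes 4 were higher and 4 lower, with Vim (vimentin) at 44.1 CPM in Mr1-/- and 68.7 CPM in Mr1+/+. Of 82 ribosomal protein genes 34 were higher and 48 lower (median -0.01), and of 76 nuclear genes of the respiratory complexes 47 were higher and 29 lower (median 0.01).

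**Figure D5:**
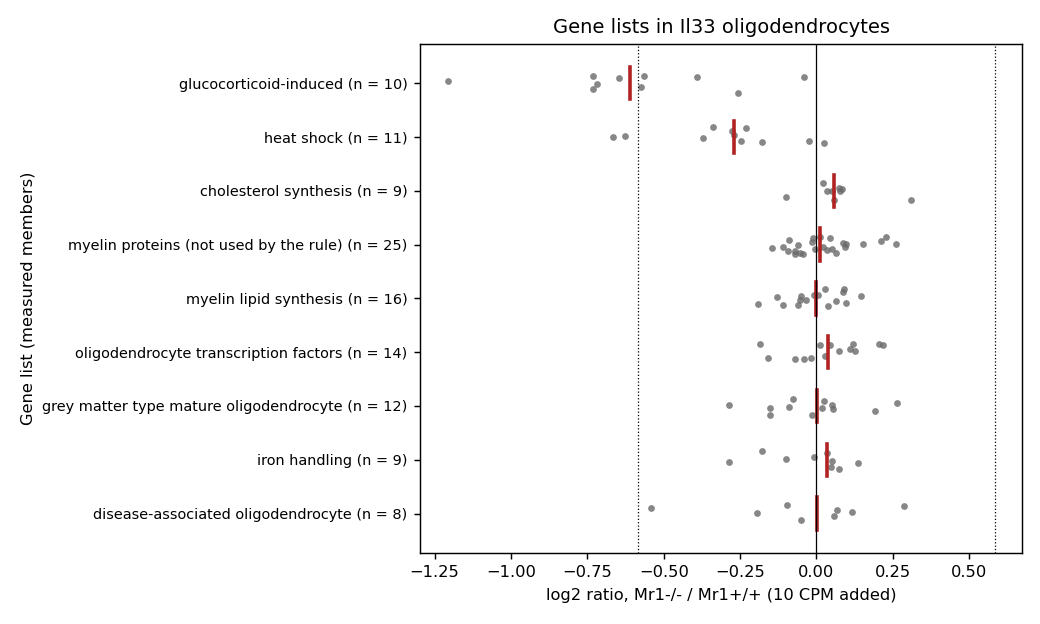
Log2 ratio of Mr1-/- over Mr1+/+ Il33 oligodendrocytes (x axis, 10 CPM added) for the measured members of 9 gene lists; each point is a gene, red bars are list medians, and dotted lines mark 1.5-fold. The glucocorticoid-induced list sits at a median of -0.61 and the heat shock list at -0.27, and the other 7 medians lie near 0.

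The partners of IL-33 were measured with few UMIs. Il1rl1, the receptor chain, had no UMI in the members of either library, where a count of 0 allows up to 3 UMIs, and in all kept cells it had 18 UMIs in Mr1-/- and 12 in Mr1+/+. Microglia held 18 of the 18 in Mr1-/- and 11 of the 12 in Mr1+/+. Il1rap, the accessory chain, was at 73.6 CPM in Mr1-/- and 74.2 CPM in Mr1+/+ members (ratio 0.991, 0.853 to 1.15). Klk6 oligodendrocytes held a like level, 67.9 CPM in Mr1-/- and 70.6 CPM in Mr1+/+. The members held 294 of 385 Il1rap UMIs in Mr1-/- and 455 of 598 in Mr1+/+.

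Around Ptgds, the genes that make its substrate were low. Ptgs1, encoding cyclooxygenase 1, was at 6.76 CPM in Mr1-/- and 10.3 CPM in Mr1+/+ members, and Ptgs2, encoding cyclooxygenase 2, had no UMI in either. The receptors of prostaglandin D2, Ptgdr and Ptgdr2, also had no UMI in the members, with the same limit of 3 UMIs for each count of 0. Of 20 genes of MHC class I presentation 4 reached the measuring threshold. None passed 1.5-fold between the genotypes, beside 0.0971% higher and 0.712% lower of all genes. B2m, the partner chain of MR1, was below the measuring threshold of 50 CPM, at 40.3 CPM in Mr1-/- and 31.3 CPM in Mr1+/+.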

How the data were processed

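The deposited matrices hold unnormalized counts, 1 whole number of UMIs for every gene in a barcode. The matrix headers name Cell Ranger 3.1.0, per the file headers, while Cell Ranger 5.1.0, STAR and mm10 are named per the submitters' processing notes. No annotation release is named in the sources used here. Members, gene lists and comparisons were chosen with earlier results of these data known.

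From the counts, UMIs were summed over each cell group in a library and scaled to CPM. Ratios are on the linear scale with an exact conditional binomial 95% interval, or log2 after adding 10 CPM. Genes needed a mean of 50 CPM and 50 UMIs, with 20 UMIs in the orders by Ptgds and Il33. No test was possible with 1 library per genotype. Shares have exact (Clopper-Pearson) intervals. All intervals cover counting error only. Doublets were kept in the main results, and Scrublet calls (expected rate 0.05) served as an alternative.

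Named genes were the 12 highest and 12 lowest between genotypes and between Il33 and Klk6 cells, and 8 and 8 against cells with neither. Their CPM in members was no less than 0.2 times that in the top class, among classes of at least 50 cells (fibroblasts were fewer), and they were not mitochondrially encoded, ribosomal, haemoglobin, Xist-region or Y-linked genes. Some genes that meet the rule are not reported here. Others were named from the lists, or because the rule used them. Genes along the Ptgds order, Nfkbia and genes set beside a list were chosen after their values were seen. Cell classes other than oligodendrocytes were assigned from marker genes. Positions are from GENCODE M21 and promoters from RefSeq. The ratio and its interval were tested on simulated data. Software was Python 3.11.15, scanpy 1.11.5, NumPy 2.4.6, SciPy 1.17.1 and pandas 2.3.3.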

Additional observations from a re-analysis of the deposited data

How the results depend on the processing

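The 10 alternatives changed the weight of cells, depth, scaling, pseudocount, filters, doublets and thresholds of the rule. All 24 genes named between the genotypes kept their direction in all 10, and the 12 lower ones stayed past 1.5-fold in all 10. Dcaf17 did so in 10, and Rtl8b in 7. Without a minimum CPM the counts between genotypes were 5 higher and 52 lower, against Klk6 cells 128 and 160, and against cells with neither UMI 296 and 190. Counts against cells with neither UMI were also 72 higher and 90 lower after thinning, 59 lower with equal weight for each cell and 54 lower with 7 of 8 genes required. The share difference was 0.649 points with 7 of 8 genes required. The Ptgds log2 ratio of 0.26 was 0.24 with equal weight, 0.29 with median-of-ratios scaling, 0.29 at no more than 5% mitochondrial UMIs, 0.23 without Scrublet calls and 0.23 with none of the 6 other-type genes. The glucocorticoid-induced median ranged from -0.65 to -0.45, and the immediate early median from -0.07 to 0.26. The cause of these shifts was not tested. No paired analysis was possible because each genotype has 1 library. Genes under 50 CPM are limited by depth.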
